A study of Mus musculus with 2 samples.

Results

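The interferon regulatory factors (IRFs) form a family of transcription factors that bind interferon-stimulated response elements, and 9 genes were followed here by symbol, out of 31053 in the feature table. They were Irf1, Irf2, Irf3, Irf4, Irf5, Irf7, Irf8 and Irf9, together with Irf2bp2, which encodes an IRF2-binding co-regulator and is not itself an IRF. The cells were microglia, the resident macrophages of the brain, isolated without enzymes from C57BL/6 female mice aged 3 months and sorted by flow cytometry. A wild-type (WT) library and a library titled IRF8KO, in which IRF8 should be lacking, each came from 3 pooled mice on the 10x Genomics droplet platform, with no treatment named. The genotype field of the second sample contradicts its title, since it too says WT. The allele is not named, and the protocol also lists SMART-Seq v4, a kit for full-length cDNA, beside the droplet platform. The second library is therefore called the library labelled IRF8KO.

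IRF3 and IRF7 are held in the cytoplasm until sensors of foreign nucleic acid lead to their phosphorylation, after which they switch on type I interferon genes. Secreted interferon then acts on its receptor, and IRF9 is the DNA-binding part of a complex that turns on interferon response genes, among them Irf7. IRF8 is a lineage factor of macrophages and microglia that binds composite sites together with PU.1 (encoded by Spi1), and IRF4 is its closest relative. The questions addressed were whether other members were higher where IRF8 should be lacking, and whether the retained Irf8 transcript varied with the state of the cell.

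Barcodes were kept from 1000 UMIs and 500 genes upward if mitochondrial genes took no more than 10% of UMIs, and fell into 3 populations. A UMI (unique molecular identifier) tags a captured transcript, so that each is counted a single time. The WT library gave 3304 cells with 18543061 UMIs. Of the 5105 kept cells of the library labelled IRF8KO, 5007 had under 2% of their UMIs in the 6 granule genes Camp, Ngp, S100a8, S100a9, Lcn2 and Ltf and are called non-neutrophil cells, with 18980263 UMIs. The remaining 98 cells, with 842948 UMIs, are called neutrophil-like. No cell lay near that limit on the lower side: the highest granule-gene share below it was 0.232% while the lowest above it was 2.36%, and no WT cell exceeded 0.0400%. Median UMIs per cell were 3204.5, 2933 and 7057.5, and mitochondrial genes took a median of 2.09% of UMIs in WT cells against 3.65% in kept cells of the other library. The libraries shared 5 barcodes. With 1 library per genotype there is no replicate and no test of genotype. Intervals in brackets are exact 95% intervals that cover counting error only.

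Markers checked the labelled cell type. All 11 microglia markers reached 10 CPM (UMIs scaled to a common total) in WT cells, compared with 10 of 11 in IRF8KO non-neutrophil cells, but their summed level was 33372 CPM in the first and 17329 in the second, where Sall1 was at 2.85. The 10 border macrophage markers summed to 265 CPM in WT cells, compared with 3376 in IRF8KO non-neutrophil cells. All 10 T and NK markers were at 0 in WT cells, compared with 9 of 10 in IRF8KO non-neutrophil cells. The IRF8KO non-neutrophil population may thus include macrophages other than microglia, and the part of this in the results below was not tested.

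The upstream sequences of Irf8, Irf2, Irf1 and Irf7 are shown first, because these members differ in whether their level followed the interferon response of the cell. Each run is the 250 bases before the first RefSeq start of the gene (GRCm38.p6), read 5′ to 3′ on the gene's strand. Irf8 is at chr8:120736108-120736357 (+), Irf2 at chr8:46739495-46739744 (+), Irf1 at chr11:53769764-53770013 (+) and Irf7 at chr7:141266425-141266674 (-). Capitals mark matches to 3 motifs.
Irf8: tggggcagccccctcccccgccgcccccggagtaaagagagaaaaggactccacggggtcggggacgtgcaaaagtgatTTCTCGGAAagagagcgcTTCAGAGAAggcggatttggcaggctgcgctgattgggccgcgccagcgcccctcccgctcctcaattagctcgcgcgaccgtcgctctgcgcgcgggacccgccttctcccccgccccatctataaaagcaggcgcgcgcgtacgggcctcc
Irf2: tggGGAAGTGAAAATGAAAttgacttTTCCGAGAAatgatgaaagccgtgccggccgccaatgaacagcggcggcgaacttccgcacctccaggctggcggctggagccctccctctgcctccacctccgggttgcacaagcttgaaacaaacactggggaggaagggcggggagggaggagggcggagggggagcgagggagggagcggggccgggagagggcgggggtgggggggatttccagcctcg
Irf1: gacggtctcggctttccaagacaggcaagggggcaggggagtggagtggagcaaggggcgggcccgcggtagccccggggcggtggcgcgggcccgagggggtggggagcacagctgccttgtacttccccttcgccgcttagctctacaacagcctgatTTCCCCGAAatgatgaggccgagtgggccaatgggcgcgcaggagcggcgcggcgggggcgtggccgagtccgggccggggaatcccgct
Irf7: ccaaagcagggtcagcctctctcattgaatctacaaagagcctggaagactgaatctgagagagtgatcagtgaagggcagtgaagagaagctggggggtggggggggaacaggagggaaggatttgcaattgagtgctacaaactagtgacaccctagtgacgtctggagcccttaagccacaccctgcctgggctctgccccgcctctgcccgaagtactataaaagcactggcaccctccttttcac

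The motifs searched, on both strands, were an interferon-stimulated response element (ISRE-like, GAAANNGAAA), a gamma-activated site (GAS-like, TTCNNNGAA) and an ETS-IRF composite site of the kind PU.1 and IRF8 share (GGAANNGAAA). In RefSeq windows running from 250 bases before to 50 bases after a start, they were found in 3.44%, 8.30% and 2.72% of 32851 windows. All 9 members had a window, 12 in total. Irf2 held an ISRE-like match (GAAAATGAAA) at -241 to -232 from its start, a composite match (GGAAGTGAAA) at -247 to -238 that overlaps it, and a GAS-like match (TTCCGAGAA) at -224 to -216. The first Irf8 window held GAS-like matches at -171 to -163 (TTCTCGGAA) and at -153 to -145 (TTCAGAGAA). The first Irf1 window held a GAS-like match (TTCCCCGAA) at -90 to -82. Irf7, Irf9, Irf5, Irf3, Irf4 and Irf2bp2 held no match to these letters in these windows, and a match is a description of letters only.

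In WT cells Irf8 was the most abundant member, and the family kept the same order in IRF8KO non-neutrophil cells except that Irf7 stood above Irf4. Levels are in CPM, the UMIs of a gene scaled to the same total in every population and not divided by gene length. The WT order was Irf8 (794 CPM), Irf2bp2 (359), Irf2 (238), Irf5 (206), Irf3 (68.7), Irf9 (54.0), Irf1 (44.4), Irf4 (4.85) and Irf7 (4.21). Only the last pair did not differ beyond counting error, with intervals of 3.90 to 5.97 for Irf4 and 3.32 to 5.25 for Irf7. In IRF8KO non-neutrophil cells the order was Irf8 (669 CPM), Irf2bp2 (327), Irf2 (182), Irf5 (81.0), Irf3 (62.0), Irf9 (58.6), Irf1 (42.8), Irf7 (37.6) and Irf4 (11.2). There the intervals of Irf3 and Irf9 overlapped, as did those of Irf1 and Irf7. The 9 members summed to 1773 CPM in WT cells, compared with 1472 in IRF8KO non-neutrophil cells, of which Irf8 made up 44.8% and 45.5%. Without Irf8 the sums were 979 and 803 CPM, so the family outside Irf8 was not higher in total.

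**Figure D1:**
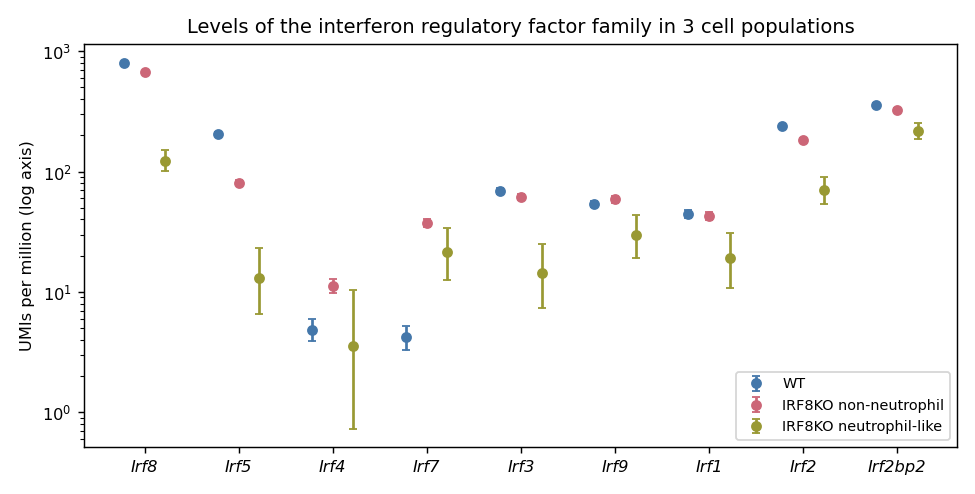
Level of each family member, in CPM on a log axis, in WT cells (blue), IRF8KO non-neutrophil cells (red) and IRF8KO neutrophil-like cells (olive); points are sums over all cells of a population and bars are exact 95% Poisson intervals for counting error. Irf8 lies at 794 and 669 in the first 2 populations, Irf7 at 4.21 and 37.6.

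Irf8 transcript was retained in the library labelled IRF8KO. It was counted 14725 times in WT cells, compared with 12698 times in IRF8KO non-neutrophil cells, a log2 ratio of -0.25 [-0.28 to -0.21]. The median of all genes with at least 10 CPM in either population was -0.28, so Irf8 stood 0.03 above the typical gene, and its direction depended on the scaling, with 0.0064 under TMM. Among cells thinned to 2000 UMIs each, leaving out 285 WT cells, 498 IRF8KO non-neutrophil cells and 1 neutrophil-like cell that were shallower, an Irf8 UMI was held by 75.7% of WT cells, compared with 68.9% of IRF8KO non-neutrophil cells. The unthinned shares were 87.4% and 81.2%. The neutrophil-like cells, a type expected to hold little Irf8, gave 4.12% after thinning and 12.2% before. The variance of thinned Irf8 counts was 1.15 times their mean in WT cells, compared with 1.21 times in IRF8KO non-neutrophil cells, which is close to the 1 of simple counting. Irf8 UMIs were thus spread over most cells. The gene (ENSMUSG00000041515) lies on chromosome 8 from 120736358 to 120756694 (+, GRCm38), where it overlaps Gm20388 on the same strand, which had 0 UMIs in both. Which part of Irf8 was removed, and which end of the transcript was read, is not said in the labels, so these counts check neither the title nor the genotype entry. Barcodes outside the filters gave 644 and 595 CPM, from 105 and 104 UMIs.

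Irf7, the interferon-inducible amplifier of the type I response, was the member that differed most. It had 78 UMIs in WT cells, compared with 713 in IRF8KO non-neutrophil cells, 4.21 against 37.6 CPM, an 8.93-fold difference (log2 ratio 3.16 [2.82 to 3.52]). After thinning, an Irf7 UMI was found in 0.662% of WT cells, compared with 5.74% of IRF8KO non-neutrophil cells. The counts were uneven among the latter, with a variance 1.51 times the mean against 0.99 in WT cells, and up to 11 UMIs in a cell. The gene lies on chromosome 7 from 141262706 to 141266481 (-) and overlaps Phrf1 on the opposite strand, whose log2 ratio was -0.45.

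Irf4, the closest relative of Irf8, was also higher, at a low level. It had 90 UMIs in WT cells, compared with 213 in IRF8KO non-neutrophil cells, 4.85 against 11.2 CPM, a log2 ratio of 1.21 [0.85 to 1.58]. The gene (chromosome 13, 30749226 to 30766976, +) was found after thinning in 0.795% of WT cells, compared with 2.08% of IRF8KO non-neutrophil cells. The 200 IRF8KO non-neutrophil cells with an Irf4 UMI held conventional dendritic markers at 204 CPM, against 45.8 in the 4807 cells without. Over all IRF8KO non-neutrophil cells, only 1 of the 9 dendritic markers reached 10 CPM, at 34.9 of the summed 57.0. The sum thus rests mostly on 1 gene, and whether cells with an Irf4 UMI are dendritic was not tested. In WT cells the same markers stood at 55.0 and 59.1 CPM, most of it from Batf3, a list member at 48.5 CPM over all WT cells. Without Batf3 the markers were at 200 CPM in IRF8KO cells with an Irf4 UMI against 44.4 in those without, and at 4.23 against 10.7 in WT cells. Without cells holding 3 or more UMIs of those markers (69 WT and 31 IRF8KO cells, an alternative chosen after seeing the data) the Irf4 log2 ratio was 1.13. With Batf3 left out of the markers, 6 WT and 31 IRF8KO cells were removed and the ratio was 1.14 (chosen after seeing the data).

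Irf5, which acts downstream of Toll-like receptors and MyD88 in macrophages, was the member that was lower. It had 3823 UMIs in WT cells, compared with 1537 in IRF8KO non-neutrophil cells, 206 against 81.0 CPM, 2.55-fold lower (log2 ratio -1.35 [-1.43 to -1.26]). Cells with an Irf5 UMI after thinning made up 32.1% and 14.1%. The gene lies on chromosome 6 from 29526625 to 29541871 (+) and overlaps Tnpo3 on the opposite strand, whose log2 ratio was -0.23.

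The remaining members differed by less than 2-fold. Irf2, a factor that can counter IRF1 at shared sites, had 4410 and 3462 UMIs, a log2 ratio of -0.38 [-0.45 to -0.32]. Irf2bp2 had 6661 and 6207 UMIs, a log2 ratio of -0.14 [-0.19 to -0.09]. Irf3, whose product activates the interferon beta gene once phosphorylated, had 1273 and 1176 UMIs and a log2 ratio of -0.15 [-0.26 to -0.03]. Irf1 had 824 and 812 UMIs, at -0.05 [-0.20 to 0.09], and Irf9 had 1001 and 1112, at 0.12 [-0.01 to 0.24]. For Irf1 and Irf9 the interval held 0. With TMM scaling the median over all genes shifted by 0.26, and Irf1 (0.20), Irf3 (0.11) and Irf2bp2 (0.12) became positive, so the direction of these small differences depends on the scaling. Irf9 shares its strand with Rnf31, at -0.28, and how reads from the overlap of those 2 genes were counted is not given. In GRCm38, Irf2 lies on chromosome 8 from 46739732 to 46847458 (+), Irf2bp2 on chromosome 8 from 126588296 to 126593986 (-) and Irf3 on chromosome 7 from 44997648 to 45002848 (+). Irf1 lies on chromosome 11 from 53770014 to 53778374 (+) and Irf9 on chromosome 14 from 55603571 to 55610030 (+). Outside the 9 members, the co-regulators Irf2bp1 and Irf2bpl had log2 ratios of -0.55 and -0.63.

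All 9 members passed the minimum of 10 CPM, 2 of them at least 2-fold higher (Irf4 and Irf7), 1 at least 2-fold lower (Irf5) and 6 in between. Of the 8859 genes that passed, 497 (5.61%) were at least 2-fold higher and 822 (9.28%) at least 2-fold lower. Under TMM scaling the split was 676 higher and 535 lower, and the same counts of 2 and 1 members were found. Measured from that median of all genes, log2 ratios were 3.44 for Irf7, 1.49 for Irf4, 0.40 for Irf9, 0.03 for Irf8 and -1.07 for Irf5. Without that subtraction, the median log2 ratio of the 9 members was -0.14.

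**Figure D2:**
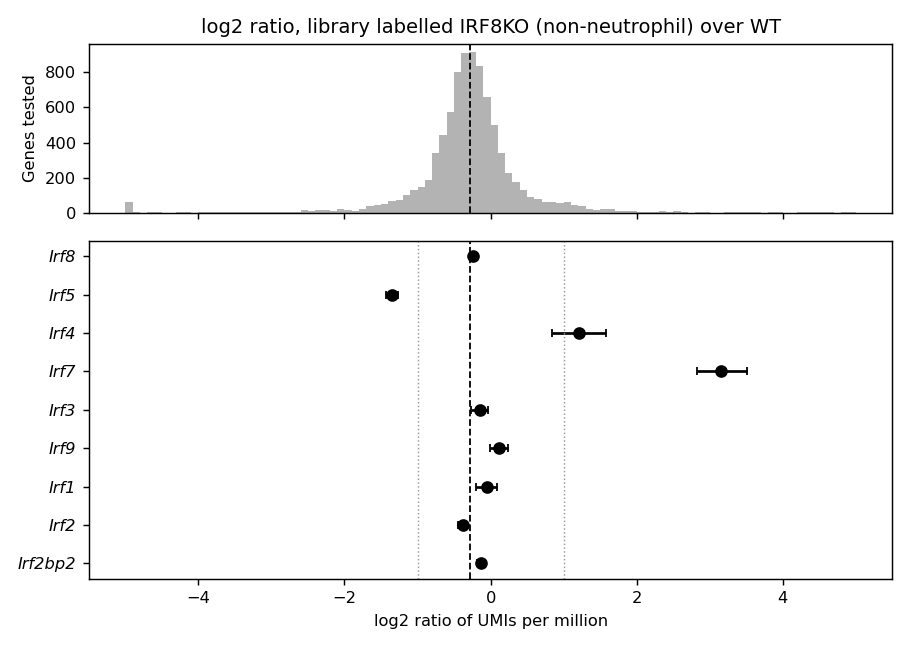
Upper panel, number of genes tested by log2 ratio of IRF8KO non-neutrophil over WT cells, in steps of 0.1, with ratios beyond 5 in either direction placed at 5. Lower panel, the 9 members with exact 95% intervals for counting error; the dashed line is the median of all genes (-0.28) and dotted lines mark 2-fold. Irf7 and Irf4 lie to the right of the 2-fold lines and Irf5 to the left, with Irf8 on the median.

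The difference in Irf7 moved with the interferon response of the cells. This was measured on a list of 46 genes that holds no family member, of which 45 were in the feature table. Of the 35 with at least 10 CPM, 22 were at least 2-fold higher and 2 lower in IRF8KO non-neutrophil cells, beside 5.61% and 9.28% of all genes. The median log2 ratio of the 35 was 2.14. Thinned cells were classed by their summed UMIs of all 45 genes per 2000 UMIs. The 4 classes were 0 to 2, 3 to 9, 10 to 19, and 20 or more. In the WT library these held 1054, 1875, 78 and 12 cells. In the library labelled IRF8KO they held 802, 2804, 688 and 215 cells, so that 4.77% reached the highest class against 0.397% of WT cells. The classes are ranges and not cell types: 36.2% of WT cells lay within 1 UMI of the lowest boundary. Ly6e alone made up 1042 of the list's 1908 CPM in WT cells, compared with 1438 of 3678 in IRF8KO non-neutrophil cells. The same class, or a weighting by class, thus need not compare cells of the same interferon response.

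Across these classes of IRF8KO non-neutrophil cells, Irf7 stood at 8.34, 18.4, 63.4 and 326 CPM. The highest class exceeded the lowest by a log2 ratio of 5.29 [4.69 to 5.96], and 40.9% of its thinned cells held an Irf7 UMI against 1.62%. In WT cells the Irf7 levels were 1.55, 4.27, 43.5 and 96.6 CPM, the last from 5 UMIs. Irf7 was thus graded with the interferon class in both libraries. Within the same class, which need not be the same interferon response, the IRF8KO level was still above the WT level in the lower classes. The log2 ratios there were 2.42 [1.27 to 3.71] and 2.11 [1.66 to 2.58]. In the class of 10 to 19 the ratio was 0.54 [-0.27 to 1.48], and in the highest 1.76 [0.52 to 3.39]. When the IRF8KO classes were weighted by the WT shares of cells, the Irf7 fold was 3.67, against 8.11 in the same cells with their own shares (an alternative chosen after seeing the data). The 468 IRF8KO non-neutrophil cells with an Irf7 UMI held the interferon list at 7352 CPM, against 3066 in the 4539 cells without. Their Irf8 levels, 679 and 667 CPM, differed little.

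Irf1 and Irf9, both inducible by interferon, were graded as well. Irf1 stood at 29.2, 38.2, 49.6 and 139 CPM in the 4 classes of IRF8KO non-neutrophil cells, and at 40.2, 46.1, 60.2 and 135 in WT cells. Irf9 stood at 34.1, 54.2, 79.6 and 112 CPM in IRF8KO non-neutrophil cells. In WT cells Irf9 was at 44.7, 57.9, 90.3 and 57.9, the last from 3 UMIs. At the WT class shares the IRF8KO over WT log2 ratios became -0.32 for Irf1 and -0.17 for Irf9, compared with -0.05 and 0.08 at their own shares. In the lowest class the ratios were -0.46 [-0.84 to -0.10] for Irf1 and -0.39 [-0.74 to -0.05] for Irf9. With TMM scaling these became -0.21 [-0.59 to 0.16] and -0.14 [-0.49 to 0.20], and the values at WT class shares -0.07 for Irf1 and 0.08 for Irf9, so these directions depend on the scaling.

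Other members showed little or no grading. Irf2 was at 183, 175, 186 and 244 CPM in IRF8KO non-neutrophil cells, higher in the highest class only. Irf5 was at 80.7, 79.2, 85.8 and 96.1, and its IRF8KO over WT log2 ratio within the classes was -1.32, -1.41, -1.30 and -0.68. Irf2bp2 ran the other way, at 332, 332, 307 and 267. Irf4 was at 8.69, 13.01, 8.95 and 3.70 CPM, the last from 3 UMIs, and was not graded with the interferon class. Among cells in the lower pair of classes alone, the Irf4 log2 ratio was 1.32 and that of Irf7 2.28 (chosen after seeing the data).

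Irf8 itself did not follow the interferon class. In IRF8KO non-neutrophil cells it stood at 670, 668, 679 and 609 CPM, a log2 ratio of the highest over the lowest class of -0.14 [-0.28 to 0.00]. In WT cells it stood at 777, 801, 880 and 869 CPM. The share of thinned IRF8KO non-neutrophil cells with an Irf8 UMI was 70.8% in the lowest class and 65.6% in the highest.

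**Figure D3:**
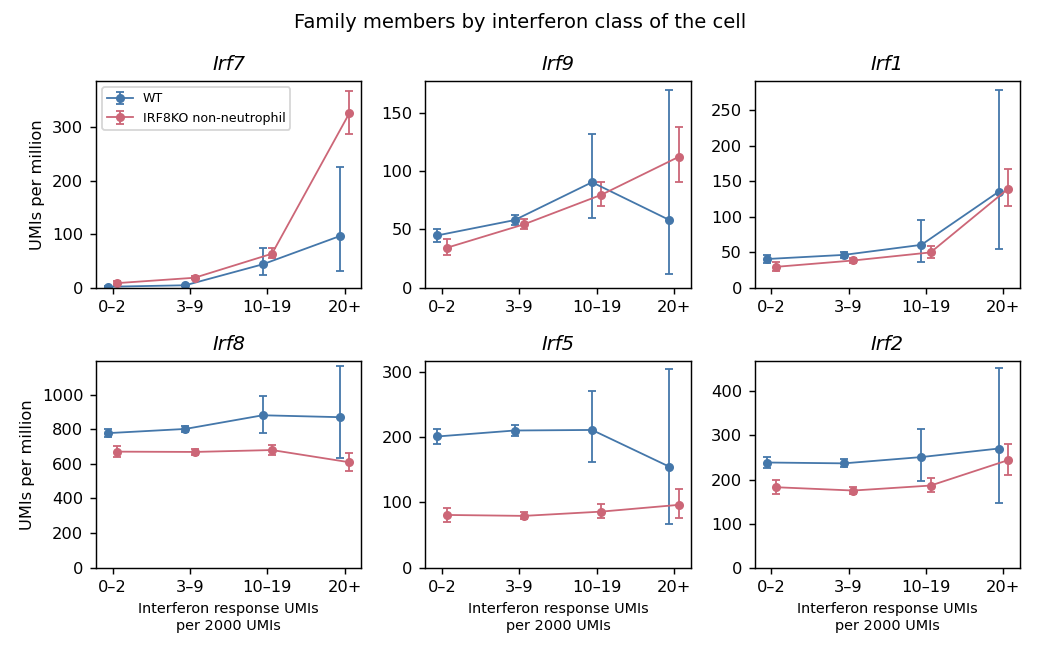
Level of 6 members, in CPM from 0, by the number of interferon response UMIs per 2000 in the cell, for WT cells (blue) and IRF8KO non-neutrophil cells (red); bars are exact 95% Poisson intervals. Irf7, Irf9 and Irf1 are graded in the IRF8KO cells, while Irf8 runs flat between 609 and 679; the highest WT class has 12 cells and wide bars.

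Irf8 was then compared across groups of cells cut at the quartiles of the share of UMIs in other gene lists. Tied shares left 3 unequal groups in some lists, such as 2125, 711 and 183 WT cells for cell cycle genes and 1359, 1029 and 631 for border macrophage genes. For disease-associated microglia genes, a set known from microglia around amyloid plaques, Irf8 in IRF8KO non-neutrophil cells was at 725, 678, 667 and 602 CPM from the lowest to the highest group, a log2 ratio of -0.27 [-0.35 to -0.19]. In WT cells the corresponding ratio was -0.11 [-0.18 to -0.05]. For homeostatic microglia genes, Irf8 in WT cells was at 851, 830, 763 and 694 CPM, a log2 ratio of -0.29 [-0.37 to -0.22]. In IRF8KO non-neutrophil cells it was at 640, 691, 694 and 634, a ratio of -0.01 [-0.09 to 0.07]. Cst3 alone made up 48525 of the homeostatic list's 93704.5 CPM in WT cells, and 19652 of 39946 in IRF8KO non-neutrophil cells. These groups therefore ranked cells in large part by Cst3, which is also in the scaling total. The lowest WT group was deeper in sum, with 4956449 UMIs in 757 cells, against 3334867 in 722 cells of the highest. The border macrophage, immediate early and cell cycle lists gave ratios of -0.02, -0.05 and -0.03 in IRF8KO non-neutrophil cells, each interval holding 0. In WT cells the ratios were 0.01 [-0.05 to 0.07], 0.13 [0.06 to 0.20] and -0.11 [-0.22 to -0.0015]. The disease-associated genes themselves took a median of 9.80% of UMIs in IRF8KO non-neutrophil cells, and that share is part of the total to which Irf8 is scaled. Apoe alone made up 88320.5 of that list's 100063 CPM in IRF8KO non-neutrophil cells, against 478 of 10683 in WT cells. The IRF8KO groups of that list therefore ranked cells largely by Apoe. Irf8 also differed with depth. Over 4 depth groups it was at 766, 707, 757 and 866 CPM in WT cells, from the shallowest to the deepest, and at 699, 627, 659 and 777 in IRF8KO non-neutrophil cells.

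**Figure D4:**
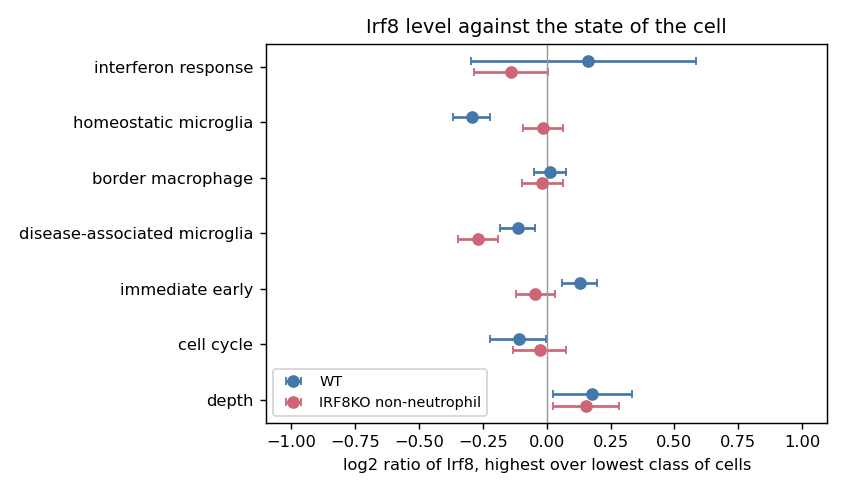
log2 ratio of the Irf8 level in the highest over the lowest class of cells for 6 gene lists and for depth, in WT cells (blue) and IRF8KO non-neutrophil cells (red), with exact 95% intervals for counting error. All ratios lie between -0.29 and 0.18.

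Other members varied with these lists in IRF8KO non-neutrophil cells. Irf1 was higher in the group richest in immediate early genes, at 56.3 against 37.3 CPM (log2 ratio 0.59 [0.31 to 0.87]). It was lower in the group richest in disease-associated genes, a ranking largely by Apoe, at 32.9 against 51.2. Irf2bp2 was also higher with immediate early genes, at 370 against 303 CPM. Irf7 was lower in the group richest in border macrophage genes, at 28.6 against 54.4 CPM (log2 ratio -0.93 [-1.27 to -0.59]), and in that richest in homeostatic genes, at 27.5 against 43.6. Irf5 ratios lay between -0.19 and 0.16 over these 5 lists, each interval holding 0.

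Cells of both libraries were also clustered together with the 9 members left out of the clustering. Of 8 clusters, clusters 1 to 3 were almost wholly WT and clusters 4 to 7 almost wholly IRF8KO non-neutrophil cells, and cluster 8 held 96 of the 98 neutrophil-like cells. Cluster 8 had 6 neutrophil markers among its 10 leading genes and is the only cluster named from markers. Irf8 was at 729, 860 and 523 CPM in clusters 1 to 3 and at 611, 651, 657 and 800 in clusters 4 to 7, so that the ranges of the libraries overlapped. The highest of each, clusters 2 and 7, were also the deepest, with median UMIs of 10543 and 7899. Cluster 6, led by Cxcl10 and Rsad2, held Irf7 at 208 CPM against 18.3 to 29.6 in clusters 4, 5 and 7, Irf1 at 114 and Irf9 at 102. Irf7 in clusters 4, 5 and 7 was above the 3.53 and 4.88 of the WT clusters 1 and 2. Irf5 was at 74.7 to 98.7 CPM in clusters 4 to 7 against 191 and 221 in clusters 1 and 2, while the shallow WT cluster 3 stood at 88.8 from 9 UMIs. Irf4 was at 14.6 CPM [11.3 to 18.7] in cluster 7 and 12.3 [9.54 to 15.5] in cluster 5, which overlap, and at 8.87 and 8.90 in clusters 4 and 6. Cluster 7 is led by the MHC class II genes H2-Eb1, H2-Aa and H2-Ab1. H2-Aa is also on the conventional dendritic marker list. Over clusters 4 to 7, Irf3 was at 57.0 to 68.7 CPM, Irf2 at 160 to 223 and Irf2bp2 at 296 to 381. The border macrophage list took 0.493%, 0.401%, 0.452% and 0.514% of UMIs in clusters 4 to 7, so it was not confined to 1 of them.

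**Figure D5:**
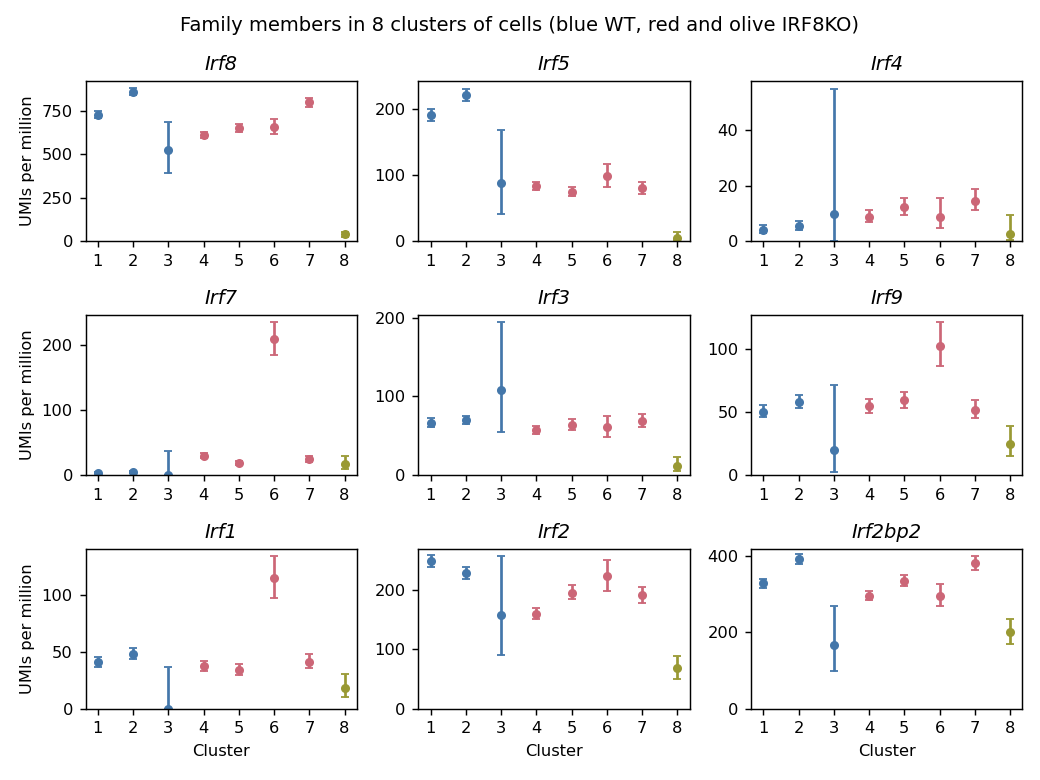
Level of each member, in CPM from 0, in 8 clusters made without the members; clusters 1 to 3 are WT (blue), 4 to 7 IRF8KO non-neutrophil (red) and 8 neutrophil-like (olive), with exact 95% Poisson intervals. Irf7, Irf9 and Irf1 peak in cluster 6 (208, 102 and 114), and Irf8 is low in cluster 8 alone (39.3).

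Among 5008 genes compared over the 8 clusters, those most like Irf8 were Tigd2 (Pearson r 0.9998), Cebpg (0.998) and Fam46c (0.998), on log2(CPM + 1). Over the 7 clusters without the neutrophil-like one, r was 0.991, 0.926 and 0.941. Tigd2, for which the highest cluster had 118 CPM and the lowest 20.96, is thus the gene whose pattern was nearest to that of Irf8 by this measure. Those most like Irf7 were Trim25 (0.987), Oasl2 (0.975) and Isg15 (0.968), all interferon response genes. The clusters share libraries and depth, and these values are descriptions of 8 points.

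Neutrophil-like cells held less of most members. Irf8 had 104 UMIs there, 123 CPM, a log2 ratio to IRF8KO non-neutrophil cells of -2.44 [-2.73 to -2.16]. Those UMIs were concentrated: 86 of the 98 cells had none, and 4 cells held 90 of the 104. The top pair, with 39 and 35 Irf8 UMIs, had granule-gene shares of 2.36% and 6.82% and carried 711 and 560 UMIs of microglia markers. The 12 cells with an Irf8 UMI held microglia markers at 9548 CPM and the 86 others at 165. Without the 4 cells, Irf8 was at 19.1 CPM, from 14 UMIs. Whether these are droplets with material from a second cell was not tested. The ratio depended on the definition, at -3.03 with a granule-gene share of at least 5%, -3.85 with equal weight for each cell and -5.20 with a share of at least 25% (chosen after seeing the data). It was -1.73 when the 6 granule genes were left out of the totals. The 12 neutrophil markers, which include those genes, summed to 390126 CPM in these cells.

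Of the 9 members, 6 were at least 2-fold lower in neutrophil-like than in IRF8KO non-neutrophil cells and none at least 2-fold higher, beside 44.9% and 11.4% of the 8798 genes that passed the minimum. The median log2 ratio was -1.38 for the members and -0.85 for all genes. Relative to the median of all genes, or with the 6 granule genes left out of the totals, the count of 6 became 3: Irf3, Irf5 and Irf8 (alternatives chosen after seeing the data). Irf5 (11 UMIs) was at -2.63, Irf3 (12) at -2.12, Irf4 (3) at -1.66, Irf2 (59) at -1.38 and Irf1 (16) at -1.17. As for Irf8, a few cells weighed on these values. The 5 neutrophil-like cells with an Irf5 UMI held microglia markers at 12164 CPM and Irf8 at 720. Without the 4 cells with 5 or more Irf8 UMIs, 2 Irf5 UMIs and 1 Irf4 UMI were left, and 8 of the 9 members were at least 2-fold lower (chosen after seeing the data). The share of all genes was not computed for this setting or for those that gave 3 members. Those counts of 8 and 3 therefore have no background beside them. With all 98 cells, Irf9 (25) at -0.98, Irf7 (18) at -0.81 and Irf2bp2 (184) at -0.58 were within 2-fold. An Irf3 UMI was held by 9 of 98 neutrophil-like cells (9.18%) at full depth. After thinning it was 0 of 97, for which 3 counts of the total allow a share of 3.09% and the exact binomial upper bound is 3.73%, at that depth and of cells with a UMI. Irf2bp2 was the best retained and overtook Irf8 as the most abundant member, at 218 CPM and in 33.0% of thinned cells. Irf7 was at 21.4 CPM, above the WT level of 4.21 and below the 37.6 of the non-neutrophil cells.

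The pathway around the family showed unequal differences between IRF8KO non-neutrophil and WT cells. No interferon ligand of 7 reached the minimum, with Ifnb1 at 3 and 2 UMIs. Of 14 receptor and signalling genes, 1 was at least 2-fold higher and none lower (median log2 ratio -0.18). Among all genes 5.61% were higher and 9.28% lower, so the 1 higher gene is near the share of all genes. That gene was Usp18, an interferon-induced brake on the receptor, with 61 and 319 UMIs (log2 ratio 2.35 [1.95 to 2.77]). Stat3 was at -0.68, Jak1 at -0.62 and the cytokine-signalling inhibitor Socs3 at 0.63.

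Sensors, adaptors and kinases upstream of IRF3, IRF5 and IRF7 included 6 of 19 at least 2-fold lower and none higher, with a median of -0.41, beside 9.28% lower among all genes. With TMM scaling 4 of the 19 were lower, and Slc15a4 and Mavs were within 2-fold. Unc93b1, the chaperone of endosomal Toll-like receptors, had 18910 and 8115 UMIs (log2 ratio -1.25 [-1.29 to -1.22]). Tmem173, which encodes STING, had 7535 and 2862 UMIs (-1.43), the double-stranded RNA receptor Tlr3 had 2009 and 724 (-1.51), and its adaptor Ticam1 had 289 and 114 (-1.38). The remaining 2 were Slc15a4 (-1.18), whose product serves TLR7 and TLR9 signalling to IRF5, and Mavs (494 and 252 UMIs), the adaptor of RNA helicase sensors. The RNA helicase sensors had positive ratios, Ddx58 (which encodes RIG-I) at 0.62 and Ifih1 (which encodes MDA5) at 0.51. These 4 genes were named after their values were seen.

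DNA-binding partners and myeloid factors gave 1 gene at least 2-fold higher and 2 lower of 15, with a median of -0.25. Those counts are near the 5.61% higher and 9.28% lower of all genes. Sall1, a microglia identity factor, had 9469 and 54 UMIs (log2 ratio -7.49) and Batf3, a partner of IRF4 and IRF8 in dendritic cells, had 900 and 31 (-4.89). Id2 was at 1.09 and Ikzf1, a zinc finger partner, at -0.92. Among 4 co-regulators, Peli1 was at -1.06, Irf2bpl at -0.63, Irf2bp1 at -0.55 and Trim21 at 0.05. Genes described as depending on IRF8 went both ways, with 4 of 13 at least 2-fold higher and 4 lower. Among all genes 5.61% were higher and 9.28% lower. The median of the list was -0.29, beside -0.28 for all genes. With TMM scaling 5 of the 13 were higher and 3 lower. The list gives no expected direction for each gene, and the direction of dependence was not tested. Cybb, the phagocyte oxidase subunit, had 41 and 5557 UMIs (7.05) and Il1b 74 and 442 (2.54), while Aif1 (-3.10) and P2ry12 (-2.57) were lower. In the interferon response list the largest ratios, taken over the 35 members reaching 10 CPM, were those of Oas2 (2 and 364 UMIs, log2 ratio 7.47), Ifi47 (3 and 393 UMIs), Ifi207 (6.47) and Rsad2 (5.46), the WT counts of the first pair being 3 or fewer.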

How the data were processed

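The authors deposited unnormalised UMI counts for every gene and barcode, made with Cell Ranger 3.1 on mm10, per the submitters' processing notes, which also name bcl2fastq and Scanpy without a role. Annotation, strand setting and cell calling were not given in the sources used here. Barcodes started at 500 and 501 UMIs, so barcodes had been selected before deposit. The libraries held 18706147 and 19998075 UMIs in 3504 and 5303 barcodes, of which 3304 and 5105 were kept.

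From these counts, UMIs were summed over each population and scaled to CPM with Python 3.11.15, numpy 2.4.6 and scipy 1.17.1. Genes were compared where either population reached 10 CPM, and at least 2-fold counted as higher or lower. A count of 0 was set to 3 counts over the population. Intervals are exact Poisson for levels, exact conditional binomial for ratios and Clopper-Pearson for shares. Cells are not replicates, and no p-value was computed. Clusters came from scanpy 1.11.5 (2000 variable genes, 30 components, 15 neighbours, resolution 0.5). The doublet caller marked 0 WT and 3 IRF8KO cells (0.0588%), too few for a working call, so cells were kept. TMM factors came from edgeR 4.0.16 in R 4.3.3 as an alternative. The ratio script was tested on simulated data. The members, lists and rules were chosen with earlier results of these data known. All 9 members were named. Of each further list up to 4 genes with the largest absolute log2 ratio and at least 50 UMIs were named, with the 3 genes most like Irf8 and Irf7 across clusters. The state lists took from 14 to 46 genes, and Mx2 was lacking from the interferon list used. Positions are from GENCODE M21 (GRCm38).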

Additional observations from a re-analysis of the deposited data

How the results depend on the processing

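The counts of 2 members higher and 1 lower were the same under the 14 alternatives run for each, but not all of these could change them. A granule-gene limit of 0.5% left the same cells in each population. Leaving out the minimum CPM could not change the counts either, because every member already passed it. The Irf8 ratio between IRF8KO non-neutrophil and WT cells was -0.25 as reported and ranged from -0.30 to 0.0064. It was 0.0064 with TMM scaling, -0.10 with totals without mt-, Rpl and Rps genes, -0.17 without the 10 most abundant genes, -0.19 with equal weight for each cell, -0.30 over all kept IRF8KO cells and -0.21 in thinned cells. Irf7 ranged from 1.88 (at the WT shares of interferon classes) to 3.46, Irf4 from 1.13 to 1.46 and Irf5 from -1.40 to -1.09. The Irf8 ratio of neutrophil-like to non-neutrophil cells moved from -2.44 to -3.03 with a granule-gene share of at least 5%, to -1.73 with totals without the 6 granule genes, to -3.85 with equal weight for each cell and to -5.20 at 25%. A share of 0.5% selected the same cells. The Irf8 ratio between the interferon classes ranged from -0.16 to -0.02 under 5 alternatives. Levels of a few UMIs, such as Irf7 and Irf4 in the highest WT class, are limited by depth and cell number. No alternative could supply the missing replicate: each genotype is 1 library of 3 pooled mice. No paired analysis was possible because each group has 1 library.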
